A study of Homo sapiens with 6 samples.

Results

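The glycolysis and hypoxia genes described here are 36 genes chosen by name for glucose transport, the glycolytic enzymes, the control of pyruvate entry into mitochondria, lactate transport, and the hypoxia-inducible factor HIF1A with a set of its known target genes. Each matched 1 of the 58735 gene rows in the count table, and 34 of the 36 had enough counts to be among the 13772 genes tested. Bulk RNA-seq was made from Ovcar8, an established human line of the high-grade serous type of ovarian cancer, grown in RPMI-1640 medium. The FBS group, 3 libraries, was kept in 5% fetal bovine serum (FBS), and the serum-starved group, 3 libraries, was kept without it; both were cultured for 48 hours. The series title names quiescence under serum starvation in ovarian cancer as the subject. Both groups are the same line with no genetic change named in the labels, so the data describe a single cell line. No oxygen setting is named in the labels, and no hypoxic group was analysed here.

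Glycolysis breaks glucose down to pyruvate in the cytosol and returns a small amount of ATP. Tumour cells often run it fast even with oxygen present and turn the pyruvate into lactate, which leaves the cell through monocarboxylate transporters. When oxygen is short, the HIF1A protein escapes degradation, pairs with ARNT and binds the hypoxia response element, whose core letters are ACGTG, near many glycolytic genes. HIF1A is controlled mostly through the stability of its protein, which RNA-seq does not measure. Serum brings growth factors, and growth factor signalling through PI3K, mTORC1 and MYC also raises glucose uptake and glycolytic transcription, so serum withdrawal bears directly on this gene group.

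The response element core was looked for in the promoters. In the RefSeq promoter table (GRCh38.p14, 250 bases before to 50 bases after each start), 30 of the 36 genes were found, and BNIP3L, NDRG1, PFKFB2, SLC16A1, SLC2A3 and VEGFA had no entry. ACGTG was searched on both strands. It lay in 23 of the 59 promoters of these 30 genes (39.0%), against 7518 of all 35116 promoters of the same length (21.4%). By gene, 19 of the 30 had it in at least 1 promoter (63.3%), against 6790 of all 27305 genes (24.9%). The 30 genes had 59 promoters and the 27305 had 35116, so the 30 had more chances of a match per gene. Some of the genes were also chosen as known HIF1A targets. The background of all promoters was not matched for expression or base content. These shares are therefore a description and no test of enrichment. The core was absent in 11, among them SLC2A1, ENO1, PKM, PFKFB4, EGLN3 and HIF1A. CACGTG, the E-box read by MYC, MAX and MondoA among others, contains ACGTG on both strands and lay in 9 of the 59 promoters (15.3%), against 7.26% of all. The stretches of 30 bases below are shown because they carry the core in genes of different roles; each is written 5′ to 3′ on the gene's own strand, and capitals mark the ACGTG core or its reverse complement, joined to CACGTG where both are present.
CA9, chr9:35673898-35673927, plus strand: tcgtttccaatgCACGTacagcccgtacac
ANKRD37, chr4:185396667-185396696, plus strand: ggcgccgggctcCACGTGccagtgtttgtg
BNIP3, chr10:131982040-131982069, minus strand: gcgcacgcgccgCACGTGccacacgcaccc
LDHA, chr11:18394366-18394395, plus strand: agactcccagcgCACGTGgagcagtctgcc
PGK1, chrX:78104034-78104063, plus strand: gcggcgtgccggACGTGacaaacggaagcc
ENO2, chr12:6914450-6914479, plus strand: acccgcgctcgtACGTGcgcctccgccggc
PDK3, chrX:24465213-24465242, plus strand: cgcgcgccgcgtACGTGcagcaaccgactc

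The core lay closest to the start in CA9, within the last 30 bases before it, and farthest among these 7 in PGK1, 214 to 185 bases before it. In ANKRD37, BNIP3 and LDHA the core was part of the E-box CACGTG, whereas in CA9, PGK1, ENO2 and PDK3 it was not. A match is a description of letters and not evidence of binding. The 18 tested genes with ACGTG in a promoter had a median log2 fold change of -0.10 (serum-starved over FBS), and the 10 tested genes with a promoter entry but no match had a median of 0.09.

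None of the 34 tested genes passed the test at an adjusted p of 0.05 (edgeR quasi-likelihood test with Benjamini-Hochberg adjustment over all 13772 genes). Of all tested genes 39 passed, 0.283%, with 33 higher and 6 lower in the serum-starved libraries. At an unadjusted p under 0.05 the group held 2 genes, NDRG1 and PFKFB4, or 5.88% of 34, against 10.4% of all tested genes. The log2 fold changes were small and lay on both sides of 0. They were positive for 16 genes and negative for 18, ran from -0.83 (ANKRD37) to 1.02 (ALDOC), and had a median of -0.05, against -0.02 over all tested genes. Their median size without the sign was 0.25, against 0.35 over all tested genes, and 25 of the 34 were under 0.5.

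The groups of libraries overlapped for 30 of the 34 genes. The serum-starved libraries all lay above the FBS libraries for 2 genes (5.88%), NDRG1 and PFKFB4, against 10% of all tested genes. They all lay below for 2 others (5.88%), BNIP3 and PDK3, against 7.65% of all. Both shares were under those of all tested genes. After the correction of each library for GC content and gene length, they lay above for 6 genes (SLC2A1, SLC2A3, LDHB, PFKFB4, BNIP3L and NDRG1; 17.6%, against 11.1% of all) and below for 1 (PFKP; 2.94%, against 10.9% of all).

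The median standard error was 0.33 on the log2 scale, and the 95% interval lay within 1 log2 unit of 0 in both directions for 21 of the 34 genes, 14 of the 17 enzymes among them. Data were simulated with the same library sizes and the average spread of genes at each level, without the scatter of single genes around that average. In them the test recovered 15 of 98 genes changed by 2-fold and 68 of 95 changed by 4-fold. The changed genes were drawn from all tested genes. A 2-fold change in a single gene would thus often have been missed. RNA-seq of a culture gives shares of its RNA, and fewer transcripts in every cell cannot be told apart from fewer cells that make them.

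**Figure D1:**
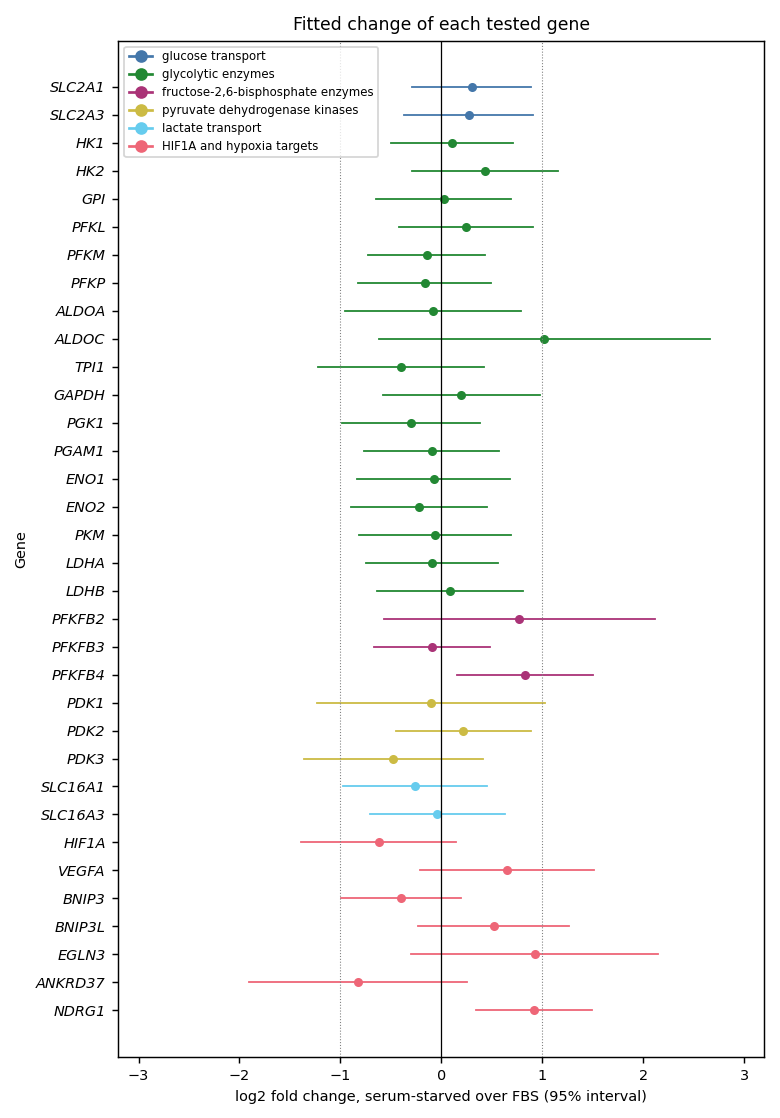
Fitted log2 fold change (x axis, serum-starved over FBS) with its 95% interval for each of the 34 tested genes (y axis), coloured by role, with dotted lines at 1 log2 unit on either side of 0. The intervals of NDRG1 and PFKFB4 do not reach 0, those of the other 32 genes do, and most glycolytic enzymes sit close to 0.

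The 6 libraries held 16379416 to 19558484 counts. The biological coefficient of variation was 36.3%. Levels of single genes are given as CPM, counts scaled to a common library total with TMM factors for library composition. Mitochondrially encoded transcripts took 1.76 to 2.68% of counts in the FBS libraries and 2.50 to 4.87% in the serum-starved ones. Of 12 epithelial and ovarian carcinoma markers, the keratins KRT8, KRT18 and KRT7 and the Müllerian factor PAX8 (59.4 to 86.1 CPM) were present, and MUC1 was at 5.89 to 13.8 CPM. EPCAM (1.02 to 3.96 CPM), WT1 (0.748 to 2.69), CDH1 (0.329 to 0.749) and KRT19 (0 to 0.220) were low, and MUC16, EMX2 and SOX17 had no counts. Of 6 fibroblast markers, COL1A1 was at 318 to 577 CPM with FBS and 762 to 831 CPM without (log2 fold change 0.70, edgeR adjusted p = 0.457), while COL1A2 and DCN were at 0. The 6 immune markers summed to 0.610 to 1.17 CPM with FBS and 0.494 to 2.04 without, the 5 endothelial ones to 0.845 to 1.02 and 1.98 to 4.55, and the 4 red cell ones to 0.203 to 0.975 and 0.881 to 2.45. The part of these transcripts in the results was not tested. The labels do not state separate cultures for the 3 libraries within a group; p-values here rest on library-to-library spread, which may be technical.

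Comparisons between genes use FPKM, which also divides by gene length. SLC2A1 (GLUT1), the main basal glucose carrier of most cancer cells and a classical HIF and growth factor target, had a mean of 28.7 FPKM, against 3.83 for SLC2A3 (GLUT3). SLC2A6, a transporter outside the 36 genes, had means of 24.6 FPKM with FBS and 47.4 FPKM without, where SLC2A1 had 25.7 and 31.6 FPKM. SLC2A1 (ENSG00000117394, chromosome 1, 42925375 to 42959176 on GRCh38, minus strand) was at 110, 129 and 134 CPM in the FBS libraries and at 163, 165 and 132 CPM in the serum-starved ones. The third serum-starved library lay inside the FBS range, and the other two lay above it. The means were 124 ± 12.4 (SD, n = 3) and 153 ± 18.2 (SD, n = 3), a log2 fold change of 0.30 (standard error 0.28, edgeR adjusted p = 0.763). SLC2A3 was at 20.2 to 24.0 CPM with FBS and 20.3 to 30.7 CPM without, a log2 fold change of 0.27.

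The 17 glycolytic enzyme genes ranged widely in level, and none passed the test. Their log2 fold changes were positive for 7 and negative for 10, with a median of -0.07, and the groups overlapped for all 17; edgeR adjusted p-values ran from 0.707 to 0.987. Together the 17 took 2.59, 2.91 and 3.18% of all counts in the FBS libraries and 3.33, 2.61 and 2.49% in the serum-starved ones. The means of this share were 2.89 ± 0.296% (SD, n = 3) and 2.81 ± 0.454% (SD, n = 3), so it differed between groups by less than the spread within either.

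Per length, the most abundant enzyme transcript was GAPDH (glyceraldehyde-3-phosphate dehydrogenase), with a mean of 3390 FPKM. ENO1 (enolase), TPI1 (triosephosphate isomerase), PKM (pyruvate kinase) and PGAM1 (phosphoglycerate mutase) followed at 1147, 934, 546 and 451 FPKM. The enzymes of the upper pathway were lower, with PFKP (phosphofructokinase) at 191, GPI (glucose-6-phosphate isomerase) at 39.3 and HK1 (hexokinase) at 37.4 FPKM. In these libraries the transcripts of the lower pathway, from triose phosphate to pyruvate, were thus mostly present at higher FPKM than those of the upper.

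GAPDH (ENSG00000111640, chromosome 12, 6533927 to 6538374 on GRCh38, plus strand), an enzyme whose transcript is often used as a loading control, was at 7292, 9211 and 12438 CPM with FBS. Without serum it was at 15265, 9138 and 8769 CPM. The first serum-starved library was the highest of the 6 and the other two lay within the FBS range. The log2 fold change was 0.20 (standard error 0.37, edgeR adjusted p = 0.9), and its 95% interval ran from -0.58 to 0.97. Without that library it was -0.09. Within either group the highest GAPDH library was 1.71 (FBS) and 1.74 (serum-starved) times the lowest.

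Several enzymes had a wider spread among the serum-starved libraries than between the groups. TPI1, which interconverts the triose phosphates, was at 2580, 3171 and 3069 CPM with FBS and at 3429, 2235 and 1026 CPM without. ENO1 was at 5304, 6701 and 7075 CPM with FBS and at 8643, 5287 and 4197 CPM without. For both genes the first serum-starved library was the highest of the 6 and the third was the lowest, and the ratio between them was 3.34 for TPI1 and 2.06 for ENO1. PKM, with a ratio of 2.07, and ENO2, the neuronal enolase, with a ratio of 2.10, had the same order in the serum-starved group. The log2 fold changes of TPI1, ENO1, PKM and ENO2 were -0.40, -0.07, -0.06 and -0.22.

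The first serum-starved library held the highest value of the 6 for 9 of the 17 enzymes. The third serum-starved library held the lowest for 6 enzymes of the lower pathway, TPI1, PGK1, PGAM1, ENO1, ENO2 and PKM. The first FBS library held the lowest for 6 others, HK1, GPI, PFKL, PFKP, ALDOC and GAPDH. HK2 and LDHA were instead highest in the third serum-starved library. After the GC and length correction, the median within-group SD of log2 CPM over the 34 genes went from 0.299 to 0.267 in the FBS group and from 0.414 to 0.272 in the serum-starved group. The 34 genes had a median GC content of 54.8%, against 50.7% over all tested genes.

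HK2, the hexokinase tied most closely to HIF and growth factors, was at 10.9 to 13.1 CPM with FBS and 11.5 to 19.0 CPM without, a log2 fold change of 0.43 (edgeR adjusted p = 0.72). LDHA, which reduces pyruvate to lactate and is another classical HIF and MYC target, was at 914, 973 and 1103 CPM with FBS and 765, 917 and 1119 CPM without, a log2 fold change of -0.09. PGK1 (phosphoglycerate kinase), long used as a hypoxia reporter promoter, was at 610 to 910 CPM and 446 to 769 CPM, a log2 fold change of -0.30. The promoters of LDHA and PGK1 above both hold the ACGTG core, and the groups overlapped for both genes.

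ALDOA (aldolase), usually among the most abundant glycolytic transcripts, was listed at only 5.16 to 13.1 CPM. A second gene model on the same strand, AC093512.2 (ENSG00000285043, chromosome 16, 30053090 to 30070420 on GRCh38), covers 1657 of the 3916 exon bases of ALDOA (42.3%). It was at 4.27, 6.32 and 7.60 CPM with FBS and 22.8, 8.51 and 6.56 CPM without, a log2 fold change of 1.06 (edgeR adjusted p = 0.438). How reads in shared exons were counted is not given in the sources used here, so the level of ALDOA is uncertain. ALDOC, with 3 to 38 counts in a library, had the largest log2 fold change of the group, 1.02 (standard error 0.78).

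**Figure D2:**
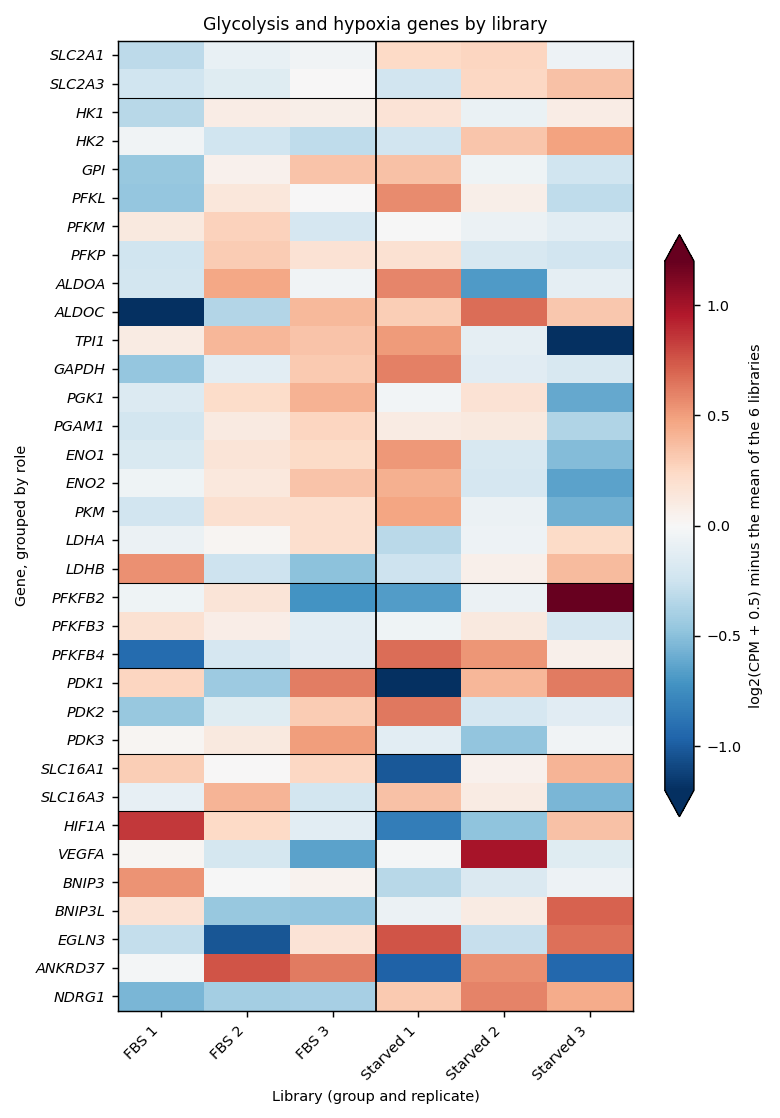
Level of each of the 34 tested genes (rows, grouped by role) in each of the 6 libraries (columns), as log2(CPM + 0.5) minus the mean of the 6 libraries; colours end at 1.2 on either side. In the enzyme rows the first serum-starved library is the highest for 9 of 17 genes and the third is the lowest for 6, whereas NDRG1 separates the groups.

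The PFKFB enzymes make and remove fructose-2,6-bisphosphate, the strongest activator of phosphofructokinase, and so set the flow through the upper pathway. PFKFB4 (ENSG00000114268, chromosome 3, 48517684 to 48562015 on GRCh38, minus strand), a hypoxia-inducible form, was at 14.4, 24.1 and 25.3 CPM with FBS and at 44.4, 40.2 and 28.9 CPM without. All 3 serum-starved libraries lay above all 3 FBS libraries, the closest pair being 25.3 and 28.9 CPM. The means were 21.3 ± 5.99 (SD, n = 3) and 37.8 ± 7.99 (SD, n = 3), a log2 fold change of 0.83 (standard error 0.32) and a 95% interval of 0.16 to 1.51. The unadjusted p was 0.0186 in edgeR's quasi-likelihood test, and the adjusted p of 0.374 did not pass.

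PFKFB3 (ENSG00000170525, chromosome 10, 6144934 to 6254644 on GRCh38, plus strand), the form with the highest kinase over phosphatase activity, was the most abundant of the family. It was at 92.5, 86.4 and 75.0 CPM with FBS and 79.0, 88.4 and 70.9 CPM without, which overlapped throughout (log2 fold change -0.09, standard error 0.27). PFKFB2 was at 0.975 to 2.20 CPM and 1.02 to 5.68 CPM. Of the family's summed FPKM, PFKFB4 took 13.3, 21.6 and 25.1% with FBS and 35.8, 31.0 and 28.0% without. PFKFB3 took 85.7, 77.2 and 74.3% and then 63.7, 68.2 and 68.7%. Neither share overlapped between the groups, also after the GC and length correction, where PFKFB4 took 12.6 to 25.3% and 26.6 to 38.1%.

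Such shares were computed for 10 families of isoenzymes or paralogs, as descriptions without a test, since 3 against 3 libraries cannot give an exact two-sided permutation p below 0.1. The groups did not overlap in 4 of the 10 families, for which no background over all genes was computed. The phosphofructokinases were among them: PFKP, the platelet form, took 84.0, 84.6 and 85.4% with FBS and 80.8, 81.1 and 83.7% without, while PFKL, the liver form, took 10.7, 11.2 and 11.3% and then 15.7, 14.5 and 11.8%. Both overlapped after the GC and length correction, where only the PFKFB family and the BNIP3 pair had shares that did not overlap. The larger form was the same in all 6 libraries for HK1 over HK2 (92.8 to 95.7%) and ENO1 over ENO2 (95.2 to 96.0%). So it was for LDHA over LDHB (93.0 to 97.1%) and SLC2A1 over SLC2A3 (84.9 to 91.3%). ALDOA over ALDOC (64.9 to 97.3%) and BNIP3 over BNIP3L (66.2 to 82.9%) also kept their order. These shares leave out forms that are not among the 36 genes, such as SLC2A6 and the hexokinase HKDC1, whose mean of 4.91 FPKM was above the 2.22 FPKM of HK2. A same-strand gene model, AC010197.2, shares 33.4% of the exon bases of LDHB and was at 0 CPM in every library. With the counting of shared exons unknown here, the level of LDHB is uncertain too.

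The pyruvate dehydrogenase kinases (PDKs) switch off the enzyme complex that passes pyruvate to the citric acid cycle, and so favour lactate. PDK2 (ENSG00000005882, chromosome 17, 50094737 to 50112152 on GRCh38, plus strand) was the main form, with 83.2 to 93.8% of the family's FPKM. It was at 37.9, 46.9 and 64.2 CPM with FBS and 81.0, 45.2 and 47.2 CPM without (log2 fold change 0.22, edgeR adjusted p = 0.864). The first serum-starved library was the highest of the 6 and the other two lay within the FBS range; without that library the log2 fold change was -0.09. SAMD14 on the opposite strand shares 38.6% of its exon bases, and whether counting used strand is not given in the sources used here.

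PDK3 (ENSG00000067992, chromosome X, 24465221 to 24541862 on GRCh38, plus strand), a form known to be induced by HIF1A, was at 4.88, 5.24 and 6.95 CPM with FBS and 4.35, 3.29 and 4.62 CPM without. The serum-starved libraries all lay below, with 4.62 and 4.88 CPM as the closest pair. The log2 fold change was -0.47 (standard error 0.42, edgeR adjusted p = 0.749). The share of PDK3 in the family was 10.3 to 11.9% with FBS and 5.58 to 9.25% without. With the GC and length correction it had a log2 fold change of -0.14, and both the levels and the shares, 7.46 to 11.2% and 6.92 to 10.1%, overlapped between the groups.

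PDK1, the form most often cited as the HIF1A target that holds back mitochondrial respiration, was at 5.59, 3.28 and 7.28 CPM and 1.36, 6.20 and 7.35 CPM, a log2 fold change of -0.10. PDK4, which many cells switch on when fed little, was not tested: it had 3 counts in the first FBS library, 6 in the third serum-starved library and none in the other 4. A count of 3, the limit that 0 counts allows, stood for 0.132 to 0.204 CPM in these libraries.

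Lactate leaves and enters cells mainly through SLC16A1 (MCT1) and SLC16A3 (MCT4), the latter the HIF-induced exporter. SLC16A1 (ENSG00000155380, chromosome 1, 112911847 to 112957013 on GRCh38, minus strand) was at 161, 132 and 156 CPM with FBS and 64.6, 136 and 174 CPM without. Only the first serum-starved library was low, and the third was the highest of the 6. The log2 fold change was -0.26 (standard error 0.34, edgeR adjusted p = 0.844), and without the first serum-starved library it was 0.07. SLC16A3 was at 180, 255 and 165 CPM and 246, 207 and 132 CPM, a log2 fold change of -0.04.

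The share of SLC16A1 in the FPKM of the pair ranged from 30.8 to 69.1%, both ends of it in the serum-starved group. After the GC and length correction the shares of SLC16A1 were 48.2 to 60.6% with FBS and 45.9 to 62.7% without.

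HIF1A itself (ENSG00000100644, chromosome 14, 61695513 to 61748259 on GRCh38, plus strand) was at 43.1, 28.0 and 21.6 CPM with FBS and 13.1, 16.9 and 30.3 CPM without. The third serum-starved library lay within the FBS range and the other two lay below it. The means were 30.9 ± 11.1 (SD, n = 3) and 20.1 ± 9.03 (SD, n = 3), a log2 fold change of -0.62 (standard error 0.37) and a 95% interval of -1.39 to 0.15 (edgeR adjusted p = 0.583). After the GC and length correction it was -0.23, and without the third serum-starved library it was -1.05, with an adjusted p of 0.0961 in edgeR; over all 18 alternatives the adjusted p ran from 0.0961 to 0.997. With a GC content of 41.0%, HIF1A had the lowest of the 34 tested genes.

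The known HIF targets did not share a direction. Of the 7 tested genes in the set of HIF1A with its targets, 4 had positive and 3 negative log2 fold changes, with a median of 0.52. The 3 negative ones include HIF1A itself. Among the targets, VEGFA, BNIP3L, EGLN3 and NDRG1 were positive, and BNIP3 and ANKRD37 were negative. Of the 7, 1 had all serum-starved libraries above and 1 had them all below (14.3% each, against 10% and 7.65% of all tested genes).

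NDRG1, a growth-restraining gene induced by hypoxia, by differentiation and by withdrawal of MYC, had the lowest p of the group. It was at 56.1, 61.7 and 62.3 CPM with FBS and at 102, 125 and 112 CPM without. The groups were far apart and each was narrow, the highest library being 1.11 times the lowest with FBS and 1.22 times without. The means were 60.0 ± 3.39 (SD, n = 3) and 113 ± 11.3 (SD, n = 3), a 1.88-fold difference or a log2 fold change of 0.91 (standard error 0.27) and a 95% interval of 0.34 to 1.49. The unadjusted p was 0.0036 and the adjusted p was 0.256 in edgeR's quasi-likelihood test, so NDRG1 did not pass.

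NDRG1 was the only gene of the 34 to pass under any of the 18 alternatives, and it did so under 2. DESeq2 gave it an adjusted p of 0.0404, where 1.23% of all genes passed. Without the third serum-starved library edgeR gave 0.0494, where 1.81% passed. Over the 18 alternatives its adjusted p ran from 0.0404 to 0.997 and its log2 fold change from 0.62 to 1.00, always positive. The lowest values came with the GC and length correction, under which it was 0.64 (edgeR adjusted p = 0.125) and the groups still did not overlap.

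**Figure D3:**
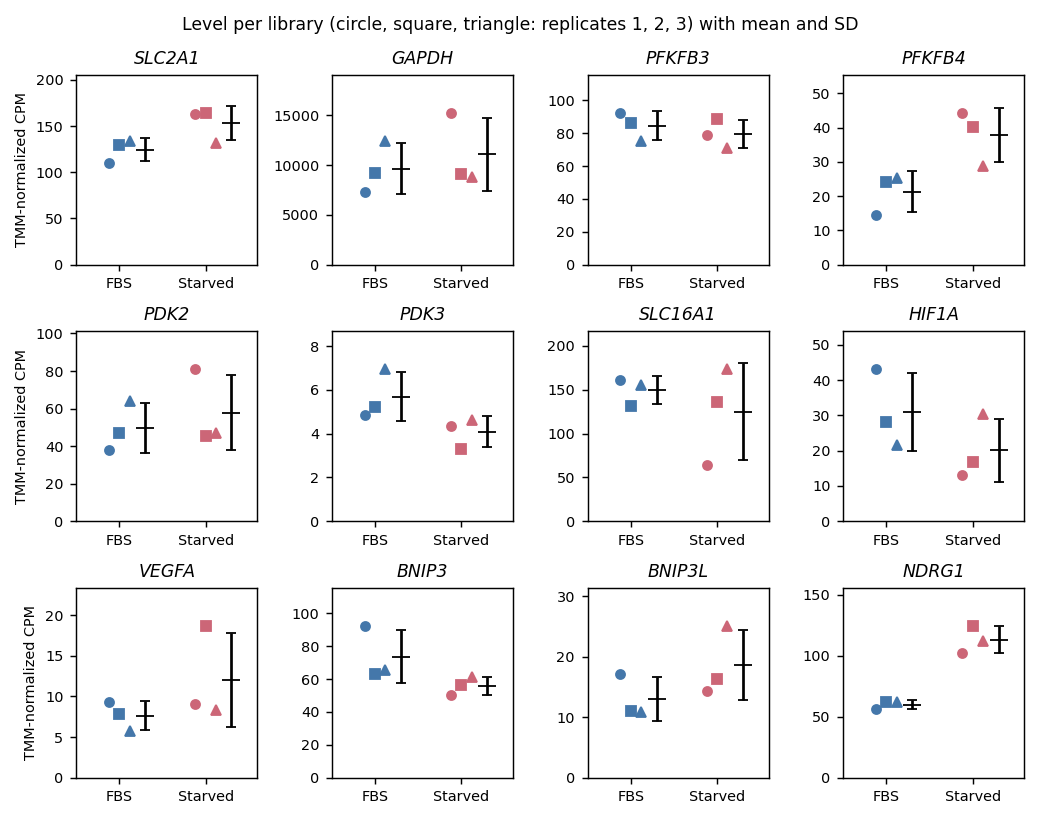
Level of 12 genes in TMM-scaled CPM (y axis, from 0) in each library of the FBS and serum-starved groups (x axis), with markers for replicates 1 to 3 and a bar for the mean and SD beside each group. NDRG1 and PFKFB4 lie higher in every serum-starved library, BNIP3 and PDK3 lie lower, and the groups overlap for the other 8.

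BNIP3 and BNIP3L (NIX) are related receptors on the outer mitochondrial membrane that mark mitochondria for autophagy, both induced by hypoxia. BNIP3 (ENSG00000176171, chromosome 10, 131966455 to 131982013 on GRCh38, minus strand) was at 92.5, 63.3 and 65.3 CPM with FBS and 50.2, 56.3 and 61.0 CPM without. All serum-starved libraries lay below all FBS libraries, with 61.0 and 63.3 CPM as the closest pair. After the GC and length correction the groups overlapped. The means were 73.7 ± 16.3 (SD, n = 3) and 55.8 ± 5.39 (SD, n = 3), a log2 fold change of -0.40 (standard error 0.28, edgeR adjusted p = 0.673).

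BNIP3L (ENSG00000104765) was at 17.2, 11.0 and 10.9 CPM with FBS and 14.4, 16.3 and 25.1 CPM without. The first FBS library lay among the serum-starved ones, which it no longer did after the GC and length correction, and the log2 fold change was 0.52 (standard error 0.35, edgeR adjusted p = 0.651). The balance of the pair also separated the groups. BNIP3 took 81.3, 82.4 and 82.9% of their summed FPKM with FBS and 73.8, 73.6 and 66.2% without, means of 82.2 ± 0.818% and 71.2 ± 4.33% (SD, n = 3 each). After the GC and length correction the shares were 82.1 to 85.4% and 65.6 to 71.4%. The difference between the group means was -11.0 percentage points without the correction and -14.4 with it. PNMA2 on the opposite strand shares 7.66% of the exon bases of BNIP3L. It had a mean of 19.6 CPM and a log2 fold change of 0.64. With the strand setting unknown here, the part of PNMA2 reads in this balance was not tested.

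**Figure D4:**
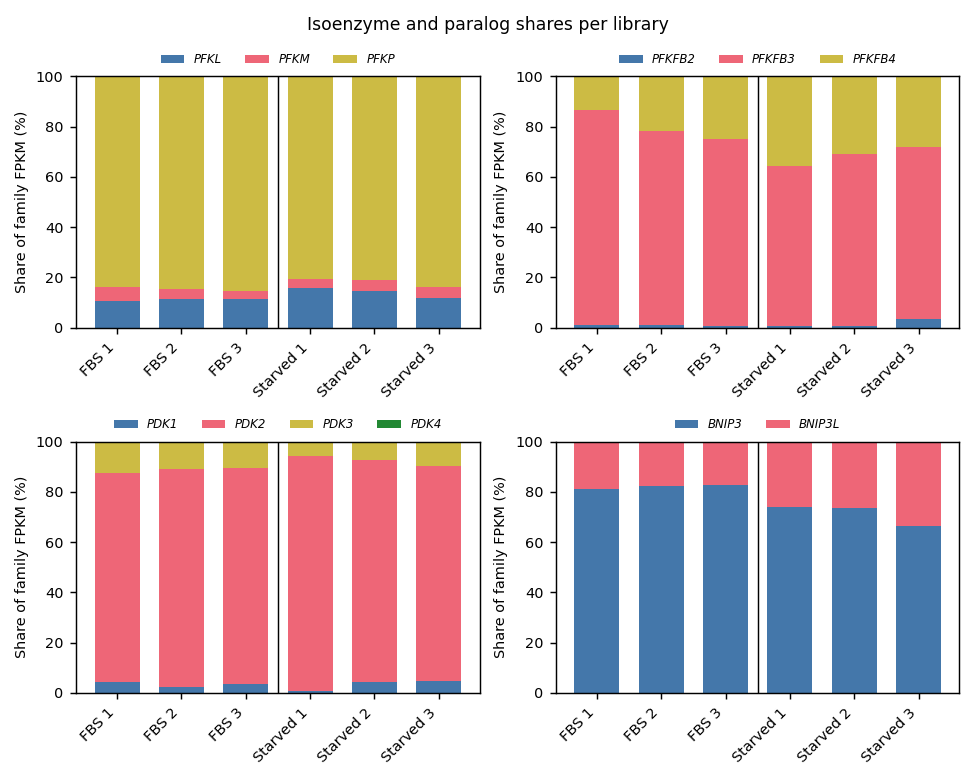
Share of each form in the summed FPKM of its family (y axis, percent) in each of the 6 libraries (x axis), for the phosphofructokinases, PFKFB enzymes, pyruvate dehydrogenase kinases and the BNIP3 pair; the vertical line divides the groups. The share of BNIP3 is 81.3 to 82.9% with FBS and 66.2 to 73.8% without, and the share of PFKFB4 is 13.3 to 25.1% and 28.0 to 35.8%.

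VEGFA (ENSG00000112715, chromosome 6, 43770184 to 43786487 on GRCh38, plus strand), the angiogenic growth factor and the best known HIF target, was at 9.35, 7.86 and 5.72 CPM with FBS and 9.04, 18.7 and 8.28 CPM without. The second serum-starved library stood above the rest and the other two lay within the FBS range. The log2 fold change was 0.65 (standard error 0.41, edgeR adjusted p = 0.606); it was 0.17 without the second serum-starved library and 0.28 after the GC and length correction.

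EGLN3 (PHD3), a prolyl hydroxylase that HIF induces and that marks HIF for degradation, was at 1.63, 0.774 and 2.40 CPM and 3.87, 1.65 and 3.61 CPM, a log2 fold change of 0.93. ANKRD37 was at 4.27, 7.69 and 6.95 CPM and 1.97, 6.64 and 2.03 CPM, a log2 fold change of -0.83 (standard error 0.51). UFSP2 on the opposite strand shares 35.2% of the exon bases of ANKRD37. CA9, the carbonic anhydrase used as a clinical marker of tumour hypoxia, had 2 counts in all, both in the second FBS library, and was not tested. Its 0 counts in each serum-starved library allow up to 0.132 to 0.204 CPM. ARHGEF39 on the opposite strand, at a mean of 14.1 CPM, shares 38.5% of the exon bases of CA9. With strand setting and shared-exon rule unknown here, this limit holds only for reads that could be counted to CA9.

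Genes of the wider pathway were read from the same test, over lists that hold none of the 36. None of the 115 tested of 134 passed, 17 had an unadjusted p under 0.05 (14.8%, against 10.4% of all tested genes), and the median log2 fold change was 0.08. Over all tested genes 10% had every serum-starved library above and 7.65% every one below. Of the 15 other HIF subunits and regulators, 14 were tested; 10 were positive, 4 had all serum-starved libraries above (28.6%) and 1 had them all below (7.14%), and the median was 0.29. Of 37 other hypoxia-induced genes, 34 were tested; 20 were positive and 14 negative, 6 lay wholly above (17.6%) and 1 wholly below (2.94%), and the median was 0.15. Of 27 other glucose transporters and glycolytic genes, 17 were tested; 10 were positive, 4 lay wholly above (23.5%) and 0 wholly below, and the median was 0.34.

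The gene closest to passing among them was ADM, which encodes the vasodilator peptide adrenomedullin and is strongly hypoxia-inducible; it and the next 2 genes were chosen after their values were seen. ADM was at 313, 216 and 179 CPM with FBS and 106, 74.2 and 52.1 CPM without, a log2 fold change of -1.61 (standard error 0.34, edgeR adjusted p = 0.0534). It passed in 9 of the 18 alternatives, DESeq2, limma-voom, the replicate block and the GC and length correction among them, with adjusted p from 0.000604 to 0.699 over the 18. BHLHE40, a hypoxia-induced transcriptional repressor, was at 29.4, 39.7 and 45.1 CPM and 73.3, 99.8 and 77.2 CPM, a log2 fold change of 1.13 (edgeR adjusted p = 0.162). It passed in 4 of the 18, with DESeq2 (0.0194), with the GC and length correction alone (0.0258) and with the block (0.0222), and without the third serum-starved library (0.0183); the adjusted p ran up to 0.987. The glucose transporter SLC2A6 was at 67.8, 103 and 97.3 CPM with FBS and 204, 174 and 138 CPM without, a log2 fold change of 0.95 (edgeR adjusted p = 0.275). It passed in 2 of the 18, with the GC and length correction (0.0432) and without the third serum-starved library (0.0305), and the adjusted p ran up to 0.997. The groups did not overlap for ADM, BHLHE40 or SLC2A6, and ADM had the opposite sign to the other 2. ZNF395 and VLDLR, also on the list of other hypoxia-induced genes, passed with DESeq2 and were higher without serum. Their log2 fold changes there were 1.34 (DESeq2 adjusted p = 0.00491) and 1.95 (DESeq2 adjusted p = 0.0314). VLDLR also passed without the first serum-starved library, at 2.31 (edgeR adjusted p = 0.0379).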

How the data were processed

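The authors deposited a table of raw counts per gene and a table of FPKM for the same genes; the build GRCh38, STAR 2.6.1 and DESeq2 are listed in the submitters' processing notes without their roles. How reads were counted, with which tool and strand setting and with what rule for overlapping genes, is not given in the sources used here. Per the labels, RNA was taken with Trizol and a column with DNase, and libraries were made with a NEBNext Ultra kit. All 58735 gene IDs and coordinates equal GENCODE 29. The deposited FPKM values match counts scaled by gene length and by median-of-ratios size factors, set to the libraries' geometric mean total, to within 1% for 100% of genes with over 20 counts.

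Genes were filtered with filterByExpr (minimum count 10, minimum total 15), scaled by TMM and tested with edgeR 4.0.16 (glmQLFit and glmQLFTest, robust, 2 groups of 3 libraries, two-sided) in R 4.3.3; adjusted p-values are Benjamini-Hochberg over all 13772 genes tested, with a threshold of 0.05. Fold changes are serum-starved over FBS. Limits at 0 counts cover counting error only. The test was tried on simulated data (13374 genes run), where 87 genes were called, 4 of them falsely. Alternatives were DESeq2 1.42.0, limma 3.58.1 (voom, and limma-trend on log2 of FPKM plus 1 or 0.1 with a mean of at least 0.5), other scalings and filters, a per-library spline correction for GC content and gene length (5 degrees of freedom, 13768 genes), a replicate block, and each library left out in turn. Genes described with a value in every library were those whose groups did not overlap, the most abundant of each role by FPKM, the 5 of largest log2 fold change with a mean of at least 5 CPM, and HIF1A; others are given by range or within their family, and LDHA, TPI1, ENO1, PDK1, SLC16A3, EGLN3 and ANKRD37 were added after their values were seen. The members and lists were chosen with earlier results of these data known, and the lists are given by count and median with no test of a list.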

Additional observations from a re-analysis of the deposited data

How the results depend on the processing

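The median log2 fold change of the tested members was -0.05 over the 34 genes of the main fit. It lay between -0.11 and -0.04 under the 12 alternatives that kept all libraries. With 1 library left out it lay between -0.10 and 0.07, so its sign rests on single libraries. The members behind the median differed between fits: 30 in the filtered FPKM fits, 36 in the fits with no filter and 34 in the others. No member passed in 16 of the 18 alternatives; 1 did, NDRG1, with DESeq2 (log2 fold change 0.92) and without the third serum-starved library (0.92), so the count with 1 library left out was 0 to 1. Over all genes the count, 39 (33 higher, 6 lower), was 25 with total counts alone, 127 with no filter (83 higher, 44 lower), 160 with DESeq2 (118 higher, 42 lower), 107 with the GC and length correction (81 higher, 26 lower), 145 with that correction and the replicate block (99 higher, 46 lower), 2 with log2(FPKM + 1) and no filter, and 4 to 257 with 1 library left out. It was 4 without the first FBS library and 257 without the third serum-starved one (124 higher, 133 lower). Of the wider pathway lists 0 passed; 1 did with no filter, with the stricter filter, with limma-voom and with the replicate block, 5 with DESeq2, 3 with the GC and length correction, 2 with that and the block, and 0 to 3 with 1 library left out. With 1 library left out, the log2 fold change of GAPDH was -0.0905 to 0.43, that of PDK2 -0.0856 to 0.45 and that of SLC16A1 -0.58 to 0.0683; all 3 changed sign without the first serum-starved library (edgeR adjusted p of 0.947, 0.943 and 0.95). The difference in the PDK3 share, -3.66 percentage points, was -1.06 after the GC and length correction. The cause of these shifts was not tested. The replicate block gave 43 genes over all and 0 members. Same-numbered libraries had correlations of their deviations of -0.257, 0.0967 and -0.0818. No FBS library correlated best with the serum-starved library of its own number. Of the serum-starved libraries, only the second correlated best with the FBS library of its own number. The labels do not say whether the numbers pair the libraries. Deviations from means of 3 libraries cannot settle it.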

Other observations

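Neighbouring pathways that the account above leaves out had no gene past the threshold of edgeR's test. Of 11 pentose phosphate genes 10 were tested, 6 of them with positive log2 fold changes, and the groups overlapped for all 10 (median 0.11). PGD, which makes NADPH in the oxidative branch, was at 199, 264 and 322 CPM with FBS and 453, 404 and 285 CPM without. Of 8 gluconeogenesis genes 4 were tested and all 4 were positive (median 0.30), with PCK2, the mitochondrial PEP carboxykinase, at 114, 170 and 173 CPM and 189, 350 and 182 CPM. All 11 genes of pyruvate entry and the pyruvate dehydrogenase complex were tested, with 5 positive and 6 negative (median -0.22).

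Of 21 citric acid cycle genes, all tested, 8 were positive and 13 negative (median -0.07); 4 lay wholly below (19.0%, against 7.65% of all tested genes) and 1 wholly above (4.76%, against 10% of all) in the serum-starved libraries. IDH3A, a subunit of the NAD-dependent isocitrate dehydrogenase, was at 16.9, 14.1 and 14.5 CPM with FBS and 8.16, 8.23 and 9.29 CPM without (log2 fold change -0.83, edgeR adjusted p = 0.404). With DESeq2, the subunits IDH3B and IDH3G of the same enzyme had log2 fold changes of -0.06 and -0.20, against -0.82 for IDH3A. Over the whole list the log2 fold changes in edgeR ran from -1.22 to 0.94. In the glucose-sensing MondoA and ChREBP axis 5 genes were tested, of which 2 lay wholly above and 2 wholly below, against 10% and 7.65% of all tested genes. MLXIP, which encodes MondoA, was at 74.5, 98.8 and 120 CPM and 216, 158 and 225 CPM (log2 fold change 1.03, edgeR adjusted p = 0.256); it passed in 1 of 18 alternatives, DESeq2 (0.0473), and the adjusted p ran up to 0.997. PGD, PCK2, IDH3A and MLXIP were chosen after their values were seen.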
